A study of Mus musculus with 20 samples.

Results

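Mitochondrial complex I was followed through 45 genes of its subunits and assembly factors, taken from the 19505 genes tested. The rule took every gene whose symbol in the array annotation begins with Ndufa, Ndufb, Ndufc, Ndufs, Ndufv or Ndufaf followed by digits. It went by symbol, but these genes were chosen for description with earlier results of these data known. Liver RNA of mice was hybridised to 20 Clariom S Mouse arrays, with 5 mice in each of 4 groups. The groups were livers labelled OGTL KO at 4 weeks (KO), OGTL WT at 4 weeks (WT), OGTL KO at 8 weeks and OGTL WT at 8 weeks, where OGT stands for O-GlcNAc transferase, which modifies proteins of the nucleus, cytosol and mitochondria with a single sugar, N-acetylglucosamine. The sources used here did not give the strain, the sex, the alleles or the driver of the deletion. All values are log2 signals as deposited, so that a difference of 1 is a 2-fold difference on that scale, and a gene is called higher or lower where limma's p-value, adjusted over all 19505 genes, was below 0.05.

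Complex I, the NADH:ubiquinone oxidoreductase, is the entry point of electrons from NADH into the respiratory chain of the inner mitochondrial membrane. Its N module in the matrix oxidises NADH, its Q module passes the electrons through iron-sulfur clusters to ubiquinone, and its membrane arm pumps protons. The core of the membrane arm is encoded in mitochondrial DNA, while all genes described here are nuclear, and assembly factors join the modules without staying in the finished enzyme. Hepatocytes are rich in mitochondria and use the regenerated NAD+ in fatty acid oxidation, gluconeogenesis and amino acid breakdown.

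The 45 genes were sorted by role. The N module had 10 (Ndufv1, Ndufv2, Ndufv3, Ndufs1, Ndufs4, Ndufs6, Ndufa2, Ndufa6, Ndufa7 and Ndufa12), and the Q module had 5 (Ndufs3, Ndufs7, Ndufs8, Ndufa5 and Ndufa9). The proximal membrane arm had 9 (Ndufa1, Ndufa3, Ndufa8, Ndufa10, Ndufa11, Ndufa13, Ndufc1, Ndufc2 and Ndufs5), and the distal membrane arm had 10 (Ndufb2 to Ndufb11). The assembly factors were Ndufaf1 to Ndufaf8. Ndufa4, now counted as a complex IV subunit, and its relative Ndufa4l2 formed a pair of their own, and Ndufb4b, a near copy of Ndufb4, stood apart because signal of the copies cannot be assigned to either with certainty. Each gene had 1 array feature. The mitochondrially encoded subunits were not analysed here.

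The stretch just before the transcription start is shown for the gene with the largest negative difference and for both genes that were higher in KO livers at 4 weeks, since these differed in opposite directions. The 250 bases upstream, from RefSeq on GRCm38.p6, were those of Ndufa3 (chr7:3617123-3617372, plus strand), Ndufaf4 (chr4:24897833-24898082, plus strand) and Ndufb4 (chr16:37654369-37654618, minus strand). The Ndufa3 stretch was taken before a start inside the annotated gene, which begins at 3617347, so its last bases lie within the gene. Capitals mark matches to the binding motif of NRF1, nuclear respiratory factor 1, a transcription factor of many mitochondrial genes.
Ndufa3: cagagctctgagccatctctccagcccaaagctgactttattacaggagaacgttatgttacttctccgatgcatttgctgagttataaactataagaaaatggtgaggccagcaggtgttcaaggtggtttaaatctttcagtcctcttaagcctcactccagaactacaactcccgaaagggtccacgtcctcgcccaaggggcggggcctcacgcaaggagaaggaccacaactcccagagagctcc
Ndufaf4: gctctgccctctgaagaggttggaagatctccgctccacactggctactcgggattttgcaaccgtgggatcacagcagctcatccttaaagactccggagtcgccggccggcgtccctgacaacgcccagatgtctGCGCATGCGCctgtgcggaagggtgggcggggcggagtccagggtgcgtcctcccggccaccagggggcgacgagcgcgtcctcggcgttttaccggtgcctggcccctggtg
Ndufb4: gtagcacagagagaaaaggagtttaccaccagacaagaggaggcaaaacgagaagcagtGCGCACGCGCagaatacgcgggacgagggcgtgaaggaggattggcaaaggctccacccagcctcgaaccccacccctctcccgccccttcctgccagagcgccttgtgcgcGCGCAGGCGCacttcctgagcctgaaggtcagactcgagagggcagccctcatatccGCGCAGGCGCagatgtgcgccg
The Ndufb4 stretch held the motif at positions -191, -79 and -22 from the start and the Ndufaf4 stretch at -113, while none of the 4 motifs searched was found in that of Ndufa3. The other motifs were CCGGAAGT (GABP), TCAAGGTCA (ERR) and AANATGGCG (YY1), searched on both strands in windows of 250 bases before to 50 bases after the start. Such windows matched 40 of the 45 genes. The NRF1 letters were found in 9 of them (22.5%), against 5.19% of 27025 genes, and the YY1 letters in 8 (20%), against 2.76%. GABP letters were present in 1 (2.5%, against 4.31%) and ERR letters in 0 (against 0.466%). Among 8 of the 9 genes lower in KO livers at 4 weeks that had a window, 1 held the NRF1 letters (Ndufa6, at position 24) and 2 held the YY1 letters (Ndufb11 and Ndufaf8). A match describes letters in a window, and binding was not measured.

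Ogt itself was lower in KO livers at 4 weeks, at 8.14 ± 0.53 in KO and 9.57 ± 0.31 in WT (SD, n = 5 each, log2 difference -1.43, limma adjusted p = 8.82e-05). At 8 weeks it was 9.81 ± 0.21 in livers labelled KO and 10.08 ± 0.20 in WT, a difference of -0.27 that did not pass (limma adjusted p = 0.529), so Ogt RNA on these arrays does not check the genotype label at 8 weeks. Where the Ogt probes lie relative to a deleted part was not given. Skeletal muscle transcripts were abundant in 3 arrays, KO replicates 4 and 5 and WT replicate 4, all at 4 weeks, which are called the muscle-rich arrays. Acta1, skeletal muscle actin, was at 15.04 and 15.43 in those KO livers and at 15.89 in that WT liver, against 4.24 to 6.11 in the other arrays. The mean of 13 muscle markers was 12.53, 12.19 and 14.50 in them, against 4.48 to 6.17 elsewhere. The 6.17 was WT replicate 3 at 4 weeks, which held a smaller amount, with Myl1, a fast-muscle myosin light chain, at 10.01 and Myh4, a fast-muscle myosin, at 8.73. In WT replicates 1 and 2 at 4 weeks Myl1 was at 5.16 and 4.91, and in WT replicate 5 it was at 7.01. Skeletal muscle is also a tissue rich in complex I. Of the 45 genes, 18 and 25 were above all other KO livers that were not muscle-rich in KO replicates 4 and 5, and 34 were above all other WT livers in WT replicate 4. Results are therefore also given without these 3 arrays and, for the 4-week comparison and the interaction, without WT replicate 3 as well, a setting chosen after the values were seen.

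The mean signal of the 45 genes lay lower in KO livers at both ages, by slightly more than the SD of either group. At 4 weeks single KO livers lay between 10.86 and 11.31 and single WT livers between 11.22 and 11.59. At 8 weeks livers labelled KO lay between 10.76 and 11.18 and WT livers between 10.90 and 11.31. At 4 weeks KO replicate 5, one of the muscle-rich arrays, was the array that reached into the WT range. Group means were 11.08 ± 0.19 in KO and 11.32 ± 0.15 in WT at 4 weeks, and 10.91 ± 0.16 in KO and 11.15 ± 0.15 in WT at 8 weeks (SD, n = 5 each).

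**Figure D1:**
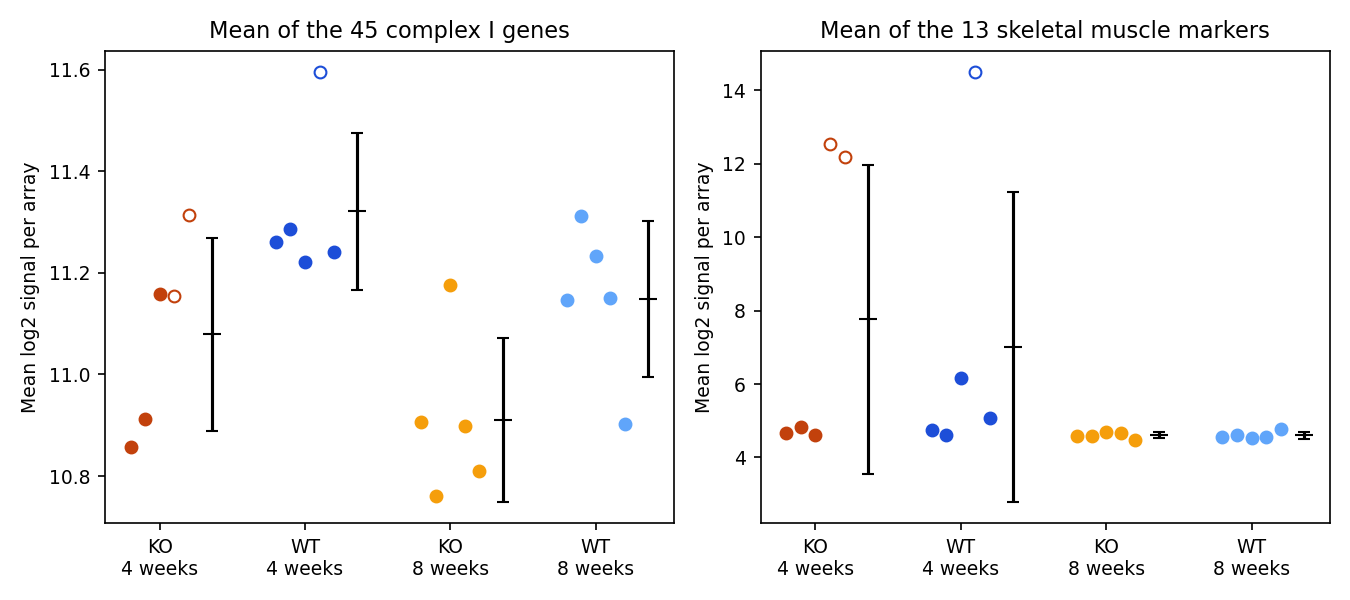
Mean log2 signal per array over the 45 complex I genes (left) and over 13 skeletal muscle markers (right), by genotype and age. Points are arrays, open points the 3 muscle-rich arrays, and bars the mean and SD of 5 arrays, and the highest complex I value of each 4-week group belongs to a muscle-rich array.

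In the comparison of KO with WT livers at 4 weeks, 9 of the 45 genes were lower, 2 were higher and 34 passed in neither direction. The lower share was 20% of the genes, against 5.48% of all genes tested, and the higher share 4.44%, against 4.7%. Of the 45 genes, 43 were above background in all 4 groups, and over all such genes 9.59% were lower and 7.05% higher, so the higher share did not exceed the background in either reading. The median difference over the 45 genes was -0.19, against 0.002 over all genes, and 36 of the 45 differences were negative, against 9675 of all 19505. The 45 genes correlated with each other across arrays, so these signs are not independent. By role, 3 of 10 N-module genes, 1 of 5 Q-module genes, 1 of 9 proximal-arm genes, 2 of 10 distal-arm genes and 2 of 8 assembly factors were lower. The 2 higher genes were 1 distal-arm gene and 1 assembly factor. Groups did not overlap for 7 lower genes and 3 higher genes, and in that count the background was 4.49% lower and 4.06% higher.

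The largest of the 45 differences was that of Ndufa3, an accessory subunit of the membrane arm. It had log2 signals of 10.58, 10.75, 10.69, 11.09 and 11.33 in KO livers, against 12.30, 12.63, 12.33, 12.76 and 12.41 in WT livers. All KO livers lay below all WT livers, and both KO muscle-rich arrays were the highest of the KO group. The log2 difference was -1.60 (SE 0.15, limma adjusted p = 1.24e-06), so that KO signal was 33.0% of WT signal, and the exact two-sided permutation p was 0.00794, the smallest that 5 against 5 arrays can give. Without the 3 muscle-rich arrays it was -1.74 (limma adjusted p = 2.27e-06). Its nearest measured neighbours in the GRCm38.p6 gene order did not pass: Tfpt was at 6.02 ± 0.13 in KO and 6.12 ± 0.27 in WT (SD, n = 5 each, limma adjusted p = 0.796), and Oscar was not above background in either group.

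In the N module the lower genes were Ndufv3, Ndufa6 and Ndufa2, all accessory subunits. Ndufv3, a small subunit of the flavoprotein part, had 4.38, 4.32, 4.82, 5.21 and 5.13 in KO livers, against 5.73, 6.02, 5.55, 5.96 and 5.73 in WT livers. The groups did not overlap, but the KO mean of 4.77 was not above the background level of 5.04, set as the 95th percentile over 1410 olfactory and vomeronasal receptor genes. Ndufv3 was therefore at least 1.69-fold lower in KO than in WT livers (measured means 4.77 ± 0.41 and 5.80 ± 0.19, SD, n = 5 each, limma adjusted p = 0.00214). Ndufa6, which binds the mitochondrial acyl carrier protein, had 12.17, 12.51, 12.89, 12.32 and 12.56 in KO livers, against 13.20, 13.20, 13.20, 13.29 and 12.93 in WT livers, so KO replicate 3 came within a small step of the lowest WT liver. Its difference was -0.67 (SE 0.15, limma adjusted p = 0.00493). Ndufa2 had 9.83, 9.84, 10.37, 10.46 and 10.31 in KO livers, against 10.81, 10.78, 10.51, 11.22 and 10.60 in WT livers, with a difference of -0.62 (SE 0.19, limma adjusted p = 0.0438) and no overlap. The flavin-binding core subunit Ndufv1 and the large iron-sulfur subunit Ndufs1 did not pass, each with a difference of 0.28 (limma adjusted p = 0.298 and 0.345).

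Ndufs8, a core subunit of the Q module that holds iron-sulfur clusters, was the lower gene of that module. It had 12.11, 12.14, 12.47, 12.53 and 13.01 in KO livers, against 13.26, 13.40, 13.06, 13.76 and 13.08 in WT livers. The groups did not overlap, and the highest KO liver was replicate 5, a muscle-rich array. The difference was -0.86 (SE 0.16, limma adjusted p = 0.00149), or 55.1% of WT signal. Ndufs3, another core subunit of that module, had a difference of 0.16 (limma adjusted p = 0.539).

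In the distal membrane arm Ndufb11 and Ndufb7 were lower and Ndufb4 was higher in KO livers. Ndufb11 had 9.75, 9.82, 10.15, 9.76 and 9.97 in KO livers, against 10.43, 10.18, 10.23, 11.08 and 10.48 in WT livers. Its groups did not overlap, and the highest WT value was that of replicate 4, a muscle-rich array. The difference was -0.59 (SE 0.15, limma adjusted p = 0.0163). Ndufb7 had 8.55, 8.63, 9.06, 8.95 and 9.20 in KO livers, against 9.61, 9.39, 9.40, 9.72 and 8.97 in WT livers, and here the groups overlapped through WT replicate 5. Its difference was -0.54 (SE 0.16, limma adjusted p = 0.0368). Ndufb4 had 14.80, 14.86, 15.22, 14.82 and 14.87 in KO livers, against 14.32, 14.18, 14.22, 14.57 and 14.16 in WT livers, with a difference of 0.62 and no overlap (SE 0.16, limma adjusted p = 0.0140). Its near copy Ndufb4b had 15.25, 15.46, 15.79, 15.52 and 15.47 in KO livers, against 15.10, 15.00, 14.96, 15.17 and 14.89 in WT livers. These groups did not overlap either, and the difference of 0.47 did not pass (SE 0.16, limma adjusted p = 0.0634).

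Among the assembly factors, Ndufaf3 and Ndufaf4, which act together on the early Q module in human cells, differed in opposite directions. Ndufaf3 had 5.93, 5.81, 5.96, 5.61 and 7.11 in KO livers, against 6.89, 7.48, 7.08, 7.15 and 7.11 in WT livers. The groups overlapped through KO replicate 5 alone, a muscle-rich array, and the difference was -1.06 (SE 0.25, limma adjusted p = 0.00869, exact two-sided permutation p = 0.0318). Without the 3 muscle-rich arrays it was -1.24 (limma adjusted p = 0.00406). Ndufaf4 had 12.32, 12.41, 12.51, 12.50 and 12.24 in KO livers, against 11.86, 11.76, 11.83, 11.32 and 12.04 in WT livers, so that every KO liver was above every WT liver. The difference was 0.63 (SE 0.17, limma adjusted p = 0.0170). Ndufaf8, a partner of Ndufaf5 in human cells, varied little across KO livers at 6.72, 6.69, 6.68, 6.68 and 6.79, against 7.49, 7.40, 7.51, 6.85 and 7.34 in WT livers. WT replicate 4 was the low one, and the difference was -0.61 (SE 0.19, limma adjusted p = 0.0442).

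The 34 genes that did not pass at 4 weeks had differences from -0.59 (Ndufb10, adjusted p = 0.243 in limma) to 0.47 (Ndufb4b). Ndufa4 was at 16.16 ± 0.25 in KO and 16.20 ± 0.16 in WT livers (SD, n = 5 each). Ndufa4l2, which replaces Ndufa4 under hypoxia in other cells, was not above background in any of the 4 groups, with single values from 3.77 to 4.97.

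**Figure D2:**
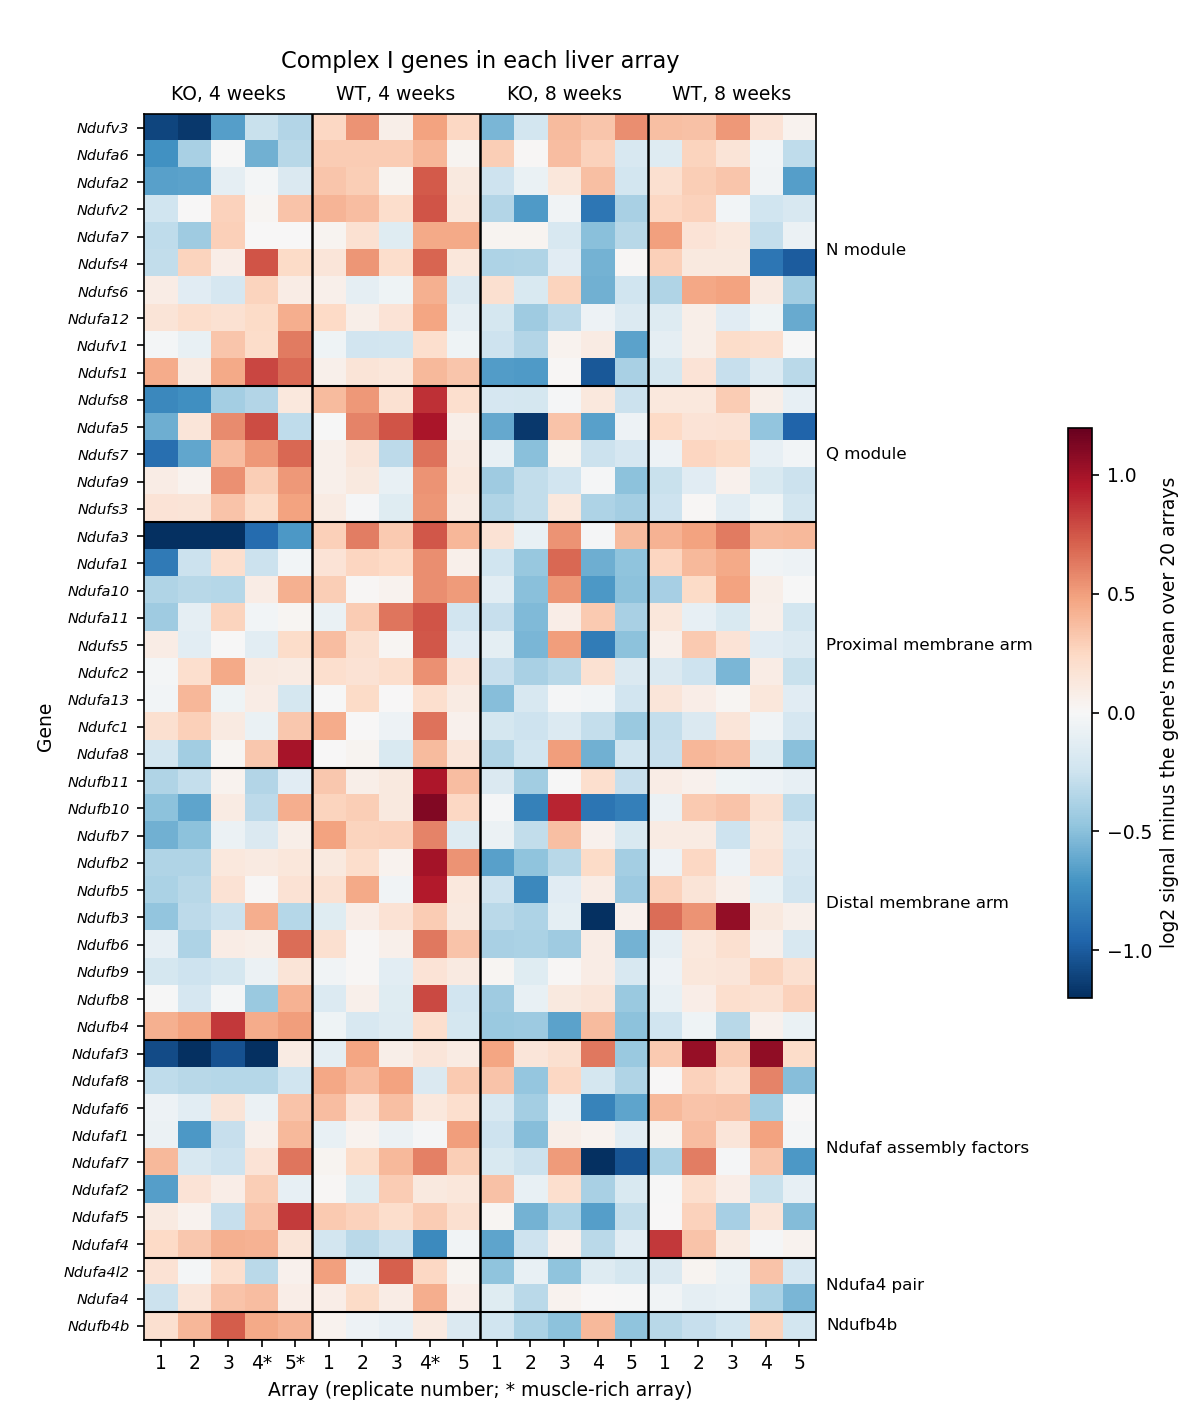
Log2 signal of each of the 45 complex I genes (lines, grouped by role) in each of the 20 arrays (columns, grouped by genotype and age), minus the gene's mean over all arrays, where red is above and blue below that mean. Ndufa3 stands out as blue in the 5 KO arrays at 4 weeks, and an asterisk marks the muscle-rich arrays.

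Without the 3 muscle-rich arrays, 5 genes were lower and 1 was higher in KO livers at 4 weeks, or 11.1% and 2.22% of the 45 genes, against 5% and 3.56% of all genes. The lower ones were Ndufa3, Ndufs8, Ndufv3, Ndufaf3 and Ndufaf8, and the higher one was Ndufb4 at 0.74 (limma adjusted p = 0.0248). Ndufa6, Ndufa2, Ndufb11, Ndufb7 and Ndufaf4 no longer passed, with limma adjusted p from 0.0530 to 0.114, in the direction they had with all arrays. Their differences were then -0.61, -0.66, -0.42, -0.60 and 0.54, against -0.67, -0.62, -0.59, -0.54 and 0.63 with all arrays, so that Ndufb11 was the one whose difference shrank most. With WT replicate 3 left out too, 4 genes were lower (Ndufa3, Ndufs8, Ndufv3 and Ndufaf3) and Ndufb4 was higher, against 4.01% and 2.87% of all genes, and Ndufaf8 was at -0.71 (limma adjusted p = 0.0941). The median over the 45 genes was -0.27 without the 3 arrays and -0.26 without all 4. Markers of other cell types also differed. The mean of 7 macrophage markers lay between 7.72 and 8.06 in KO livers, against 7.22 to 7.46 in WT livers, with 1 marker higher (14.3%, against 4.7% of all genes). That of 9 hepatocyte markers lay between 17.79 and 18.06 in KO livers, against 18.12 to 18.21 in WT livers. Of these, 1 marker was lower (Cyp2e1, a cytochrome P450, at -0.60), or 11.1% against 5.48% of all genes. Of 6 endothelial markers 1 was lower, and of 6 T and NK cell markers 1 was higher (16.7% each). Over the genes above background in all 4 groups, 9.59% were lower and 7.05% higher. Single calls in lists this short do not set them apart from these shares. For 7 cholangiocyte and 9 stellate cell and fibroblast markers limma called 0, where 1 of each list had an unadjusted p below 0.05. In RNA of whole liver, fewer hepatocytes and less RNA per hepatocyte cannot be told apart, and the part of these cell types in the complex I differences was not tested.

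At 8 weeks, 2 of the 45 genes were lower in livers labelled KO than in WT livers, 0 were higher and 43 passed in neither direction. The lower share was 4.44%, against 1.65% of all genes, and the higher share 0, against 4.94%. Over the genes above background in all 4 groups, 2.33% were lower and 6.31% higher. At an unadjusted p below 0.05, limma counted 5 of the 45 genes (11.1%), against 19.4% of all genes. The median difference was -0.26, against -0.04 over all genes, and 42 of the 45 differences were negative, against 10930 of all 19505. Here too the signs of the 45 genes are not independent. Groups did not overlap for 1 lower gene, Ndufb3, and for 0 higher genes, with backgrounds of 1.96% and 4.13%.

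Ndufb3, an accessory subunit of the distal arm, had 8.07, 8.02, 8.27, 7.12 and 8.44 in livers labelled KO, against 9.06, 8.93, 9.45, 8.51 and 8.45 in WT livers. The highest KO liver lay just below the lowest WT liver, and KO replicate 4 was far below the others. The difference was -0.90 (SE 0.23, limma adjusted p = 0.0177), or 53.7% of WT signal. Ndufaf6, an assembly factor tied to the membrane subunit ND1 in human cells, had 9.12, 8.90, 9.22, 8.51 and 8.68 in livers labelled KO, against 9.70, 9.65, 9.66, 8.89 and 9.31 in WT livers. WT replicate 4 reached into the KO range, and the difference was -0.56 (SE 0.16, limma adjusted p = 0.0432). The call of Ndufaf6 was lost in 16 of 29 alternatives, with limma adjusted p up to 0.114. The next genes by p did not pass. Ndufv2, a core iron-sulfur subunit of the N module, had 13.58, 13.25, 13.89, 13.07 and 13.54 in livers labelled KO, against 14.18, 14.21, 13.90, 13.69 and 13.74 in WT livers (difference -0.48, limma adjusted p = 0.0958). Ndufaf4 had 11.45, 11.84, 12.14, 11.76 and 11.96, against 12.93, 12.43, 12.18, 12.07 and 12.13 in WT livers, a difference of -0.52 (limma adjusted p = 0.0689), and KO replicate 3 overlapped the WT range.

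The 8-week counts rested on single arrays: without WT replicate 3 at 8 weeks 0 genes were called, and without KO replicate 3 at 8 weeks 6 were. Shares over all genes were not set beside these counts, which therefore describe only how stable the calls were. Without the 3 muscle-rich arrays, which enter this comparison through the shared estimate of spread, 1 gene was lower (Ndufb3) and 0 were higher, against backgrounds of 1.79% and 5.37%. Ndufb10 had the widest spread of any gene within a group, at 8.33 ± 0.78 in livers labelled KO and 8.75 ± 0.28 in WT (SD, n = 5 each), where KO replicate 3 was at 9.57 and the others lay between 7.78 and 8.64. Markers of other cell types differed at this age. The mean of 7 cholangiocyte markers lay between 6.50 and 8.86 in livers labelled KO, against 5.08 to 6.13 in WT, with 6 higher (85.7%, against 4.94% of all genes). For macrophage markers it lay between 7.53 and 8.38 in livers labelled KO, against 6.87 to 7.11 in WT. Of these 7, 6 were higher (85.7%), and the other was at -0.68 and did not pass after adjustment. For stellate cell and fibroblast markers the mean lay between 9.09 and 10.56 in livers labelled KO, against 7.57 to 8.46 in WT, with 6 of 9 higher (66.7%). Of 6 endothelial markers 1 was higher, and of 6 T and NK cell markers 1 was lower (16.7% each). Hepatocyte markers averaged 18.06 ± 0.06 in livers labelled KO and 18.09 ± 0.10 in WT (SD, n = 5 each), where limma called 0 of 9 and 0 had an unadjusted p below 0.05. KO replicate 3, the liver with the highest complex I mean of its group at 11.18, had the lowest cholangiocyte, macrophage and stellate means of its group, at 6.50, 7.53 and 9.09. KO replicates 1, 2, 4 and 5 had complex I means of 10.91, 10.76, 10.90 and 10.81. Their cholangiocyte means were 7.51, 7.84, 6.87 and 8.86, their macrophage means 8.38, 8.34, 8.24 and 8.33 and their stellate means 10.30, 10.56, 9.71 and 10.06. Among these, replicate 1 had the highest complex I and macrophage means, and replicate 2 the lowest complex I and the highest stellate mean. The part of these cell types in the result was not tested.

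**Figure D3:**
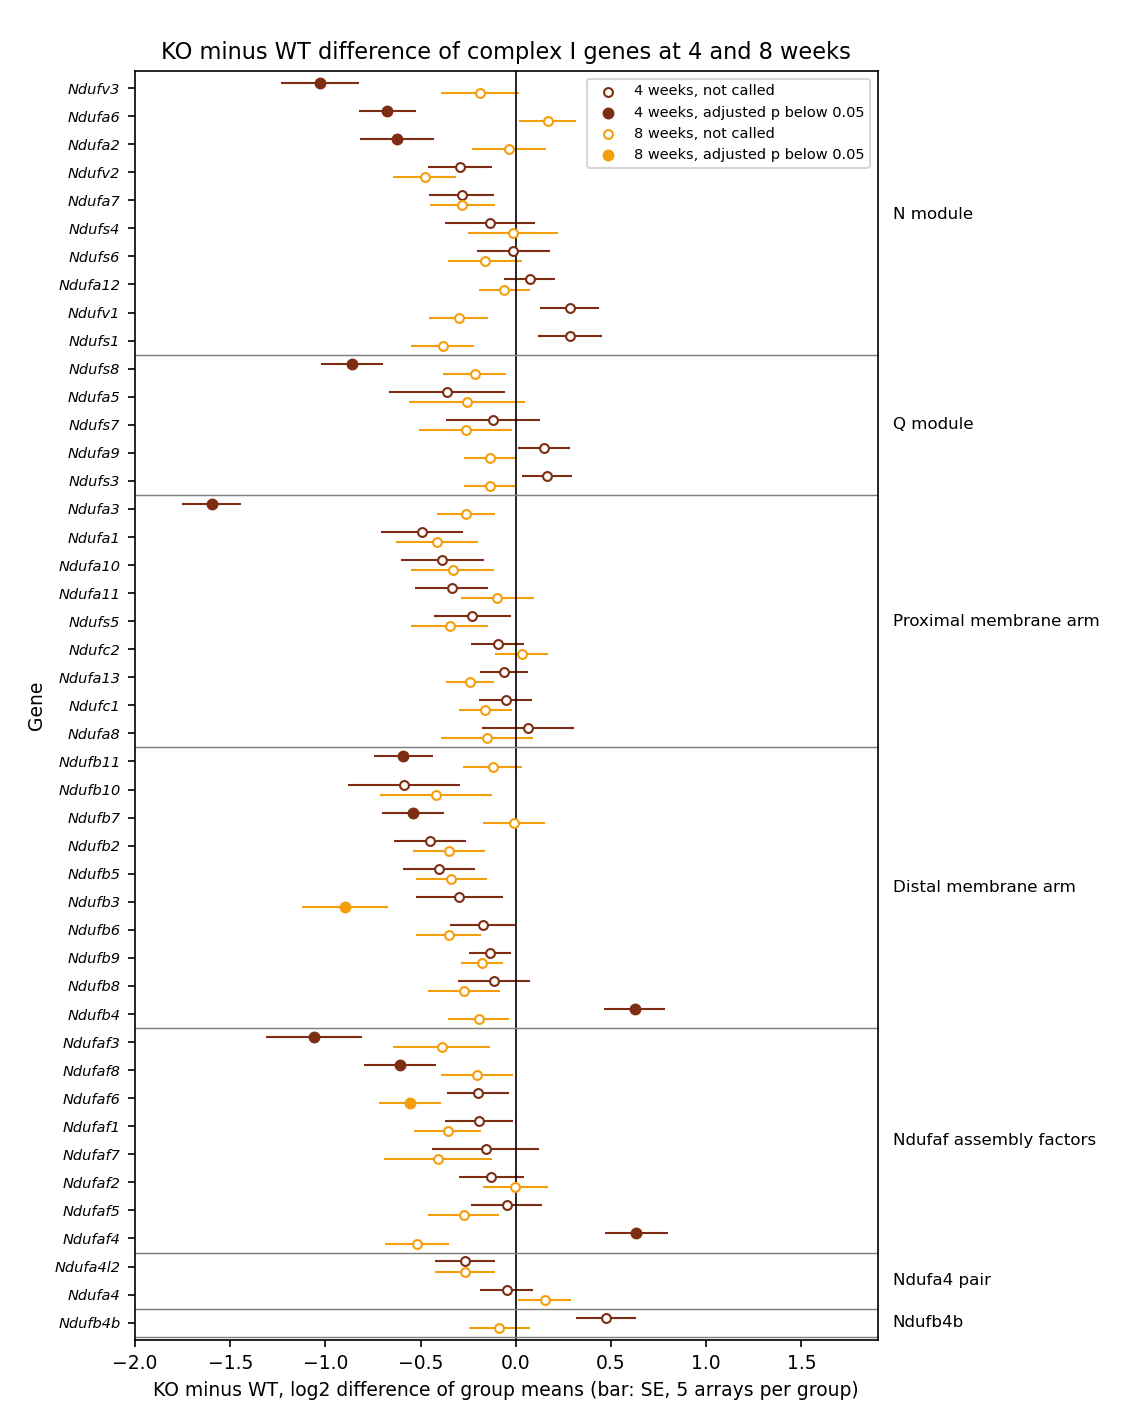
Log2 difference of KO minus WT for each of the 45 complex I genes at 4 weeks (dark) and 8 weeks (light), grouped by role, with bars for the SE. Filled points had a limma adjusted p below 0.05, which were 11 genes at 4 weeks and 2 at 8 weeks, and 36 and 42 of the 45 points lie left of 0. Over all 19505 genes 9675 and 10930 differences were negative.

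Whether the KO effect itself differed between ages was tested by the interaction, the effect at 8 weeks minus that at 4 weeks. It was positive for 2 genes and negative for 1, or 4.44% and 2.22% of the 45 genes, against 2.05% and 1% of all genes and 3.21% and 1.62% of those above background in all groups. Ndufa3 had 12.19, 11.93, 12.55, 12 and 12.39 in livers labelled KO at 8 weeks, against 12.43, 12.50, 12.64, 12.39 and 12.40 in WT livers. The groups that were far apart at 4 weeks overlapped at 8 weeks, and the interaction was 1.34 (SE 0.22, limma adjusted p = 0.00187). Ndufaf4, which was higher in KO livers at 4 weeks and had a negative difference that did not pass at 8 weeks, had an interaction of -1.15 (SE 0.24, limma adjusted p = 0.0109). Ndufa6 had 13.19, 12.91, 13.27, 13.17 and 12.70 in livers labelled KO at 8 weeks, against 12.74, 13.16, 13.05, 12.86 and 12.59 in WT livers, and its interaction was 0.84 (SE 0.21, limma adjusted p = 0.0322). The interaction of Ndufa6 did not pass without the 3 muscle-rich arrays (0.78, limma adjusted p = 0.103), while those of Ndufa3 (1.48) and Ndufaf4 (-1.06) did, so 1 gene was positive and 1 negative, against 1.9% and 0.754% of all genes. With WT replicate 3 left out too, Ndufaf4 was at -1.04 and did not pass (limma adjusted p = 0.0607), and Ndufa3 did (1.51). Ndufb4, with 13.93, 13.94, 13.73, 14.75 and 13.88 in livers labelled KO at 8 weeks against 14.13, 14.32, 14.04, 14.42 and 14.29 in WT livers, came next at -0.82 (SE 0.23, limma adjusted p = 0.0521) and did not pass. At 8 weeks 4 of the 5 KO values of Ndufb4 were below every WT value, and KO replicate 4 was above all of them.

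**Figure D4:**
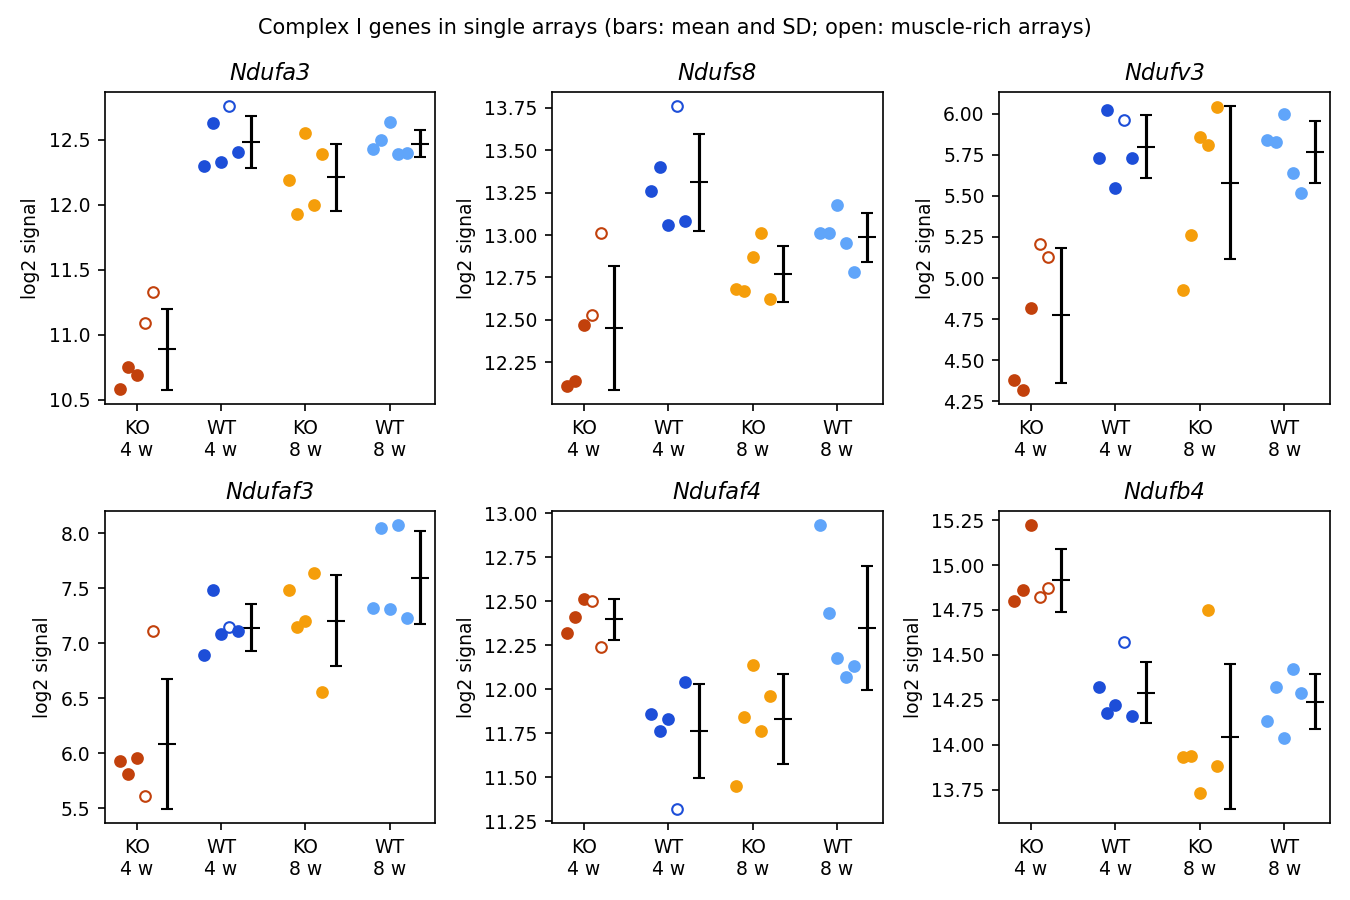
Log2 signal of Ndufa3, Ndufs8, Ndufv3, Ndufaf3, Ndufaf4 and Ndufb4 in single arrays by genotype and age, with the mean and SD of 5 arrays and open points for muscle-rich arrays. At 4 weeks the first 4 genes lie lower and the last 2 higher in KO than in WT livers, and Ndufa3 and Ndufaf4 had an interaction that passed.

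Age was compared within each genotype. These comparisons use the same arrays as those between genotypes, so they are not independent of them. Within KO livers, 10 of the 45 genes were lower and 4 were higher at 8 than at 4 weeks, or 22.2% and 8.89%, against 6.78% and 7.85% of all genes and 10.6% and 12.3% of those above background in all groups. The median difference was -0.23, against 0.02 over all genes. The 4 higher genes were Ndufa3 at 1.32 (SE 0.15, limma adjusted p = 4.77e-06), Ndufaf3 at 1.12 (SE 0.25, limma adjusted p = 0.00390), Ndufa6 at 0.56 (SE 0.15, limma adjusted p = 0.0139) and Ndufv3, which was at least 1.45-fold higher at 8 weeks. All 4 were among the genes lower in KO than in WT livers at 4 weeks, with which they share the KO arrays.

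Ndufs1, the largest iron-sulfur subunit of the N module, had the largest decrease with age in KO livers. It had 11.90, 11.89, 12.58, 11.55 and 12.18 at 8 weeks, against 13.01, 12.68, 13.02, 13.37 and 13.25 at 4 weeks, with no overlap. The difference was -1.05 (SE 0.17, limma adjusted p = 1.70e-04), and within WT livers it was -0.38 (limma adjusted p = 0.182). The interaction of Ndufs1, which compares these 2 age differences directly, was -0.67 and did not pass. Without the 3 muscle-rich arrays it was -0.55 (limma adjusted p = 0.282). Without KO replicate 3 at 8 weeks it was -0.81 and passed (limma adjusted p = 0.0360). The differences of Ndufb4 and Ndufb4b were -0.87 and -0.68 (limma adjusted p = 6.95e-04 and 0.00549), with KO replicate 4 at 8 weeks, at 14.75 and 15.45, above the other 8-week KO livers for both. Ndufa9, an accessory Q-module subunit, had 12.28, 12.41, 12.48, 12.69 and 12.21 at 8 weeks, against 12.79, 12.75, 13.25, 13 and 13.23 at 4 weeks (difference -0.59, limma adjusted p = 0.00544). Ndufaf5, an assembly factor that hydroxylates the Q-module subunit Ndufs7 in human cells, was at 5.84 ± 0.27 at 8 weeks and 6.43 ± 0.42 at 4 weeks (SD, n = 5 each, difference -0.58, limma adjusted p = 0.0384). It lost its call without the 3 muscle-rich arrays (limma adjusted p = 0.288). Ndufaf4 (-0.57), Ndufv2 (-0.55), Ndufs3 (-0.54), Ndufa12 (-0.48) and Ndufc1 (-0.44) were the others that were lower. With the 3 muscle-rich arrays left out, 7 genes were lower and 4 higher, against backgrounds of 5.92% and 6.99%, and the median was -0.12. The 4 higher genes were then Ndufa3, Ndufaf3, Ndufv3 and Ndufs8 (0.53, limma adjusted p = 0.0221), while Ndufa6 was at 0.52 and did not pass (limma adjusted p = 0.0651).

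Within WT livers, 1 gene was lower and 1 was higher at 8 than at 4 weeks, each 2.22% of the 45 genes, against 5.23% and 3.71% of all genes, so both shares were below the background. Ndufc2, a membrane-arm subunit, had 15.53, 15.46, 15.16, 15.79 and 15.44 at 8 weeks, against 15.91, 15.88, 15.92, 16.25 and 15.87 at 4 weeks (difference -0.49, SE 0.14, limma adjusted p = 0.0283). Ndufaf4 was higher at 8 weeks by 0.59 (SE 0.17, limma adjusted p = 0.0296), opposite to its age difference in KO livers, as the interaction above tested. The ages did not overlap for either gene. Ndufa4 had 15.98, 15.91, 15.93, 15.64 and 15.47 at 8 weeks, against 16.10, 16.25, 16.11, 16.46 and 16.10 at 4 weeks, and its difference of -0.42 did not pass (limma adjusted p = 0.0637). Ndufs4, an accessory N-module subunit, had 11.35, 11.18, 11.18, 10.20 and 10.06 at 8 weeks, against 11.21, 11.59, 11.27, 11.76 and 11.20 at 4 weeks, where WT replicates 4 and 5 at 8 weeks were far below the other 3 (difference -0.61, limma adjusted p = 0.116). Without the 3 muscle-rich arrays 0 genes were lower and 0 higher, against 4.4% and 2.5% of all genes, and leaving out WT replicate 4 at 4 weeks alone, or WT replicate 2 at 8 weeks alone, also gave 0. The median age difference over the 45 genes was -0.23 in WT livers, against 0.04 over all genes, and -0.14 without the muscle-rich arrays.

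Other genes of complex I and of the respiratory chain were counted in the same fits. Of 12 further complex I subunits and assembly factors, 3 were lower (25%) and 1 was higher (8.33%) in KO livers at 4 weeks. Over all genes these shares were 5.48% and 4.7%, and the median of the 12 was -0.32. Acad9, which with Ecsit and Tmem126b belongs to an assembly complex of the membrane arm, was the higher one, at 10.20 ± 0.27 in KO and 9.35 ± 0.17 in WT (SD, n = 5 each, limma adjusted p = 4.23e-04). Its partner Tmem126b was lower, at 8.43 ± 0.16 in KO and 9.04 ± 0.16 in WT (SD, n = 5 each, limma adjusted p = 0.00881). At 8 weeks 2 of the 12 were lower (16.7%, against 1.65% of all genes), Ecsit at -0.83 and Dmac2 at -0.75 (limma adjusted p = 0.0260 and 0.0470). Complex II had 0 of 8 genes called at 4 weeks in limma, where 1 had an unadjusted p below 0.05 (12.5%, against 22.4% of all genes). Complex III had 2 of 14 lower (14.3%), complex IV 3 of 18 lower (16.7%) and 1 higher (5.56%), and complex V, the ATP synthase, 2 of 16 lower (12.5%), against the 5.48% lower and 4.7% higher over all genes and the 9.59% and 7.05% over those above background. Medians at 4 weeks were -0.21, -0.26, -0.09 and -0.26 for complexes II, III, IV and V. Uqcr10, a small complex III subunit, was at 10.58 ± 0.67 in KO and 11.84 ± 0.35 in WT livers (SD, n = 5 each, limma adjusted p = 0.00295). Surf1, a complex IV assembly factor, differed by -0.67 and the copper chaperone Cox17 by 0.73 (limma adjusted p = 0.00507 and 0.00833). At 8 weeks limma called 0 genes in complexes II to V, where 2, 6, 1 and 1 had an unadjusted p below 0.05 (25%, 42.9%, 5.56% and 6.25%, against 19.4% of all genes), and their medians were -0.30, -0.34, -0.05 and -0.11. The difference between the complexes was not tested.

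Of 13 regulators of mitochondrial gene expression, 1 (7.69%) was lower in KO livers at each age. Over all genes 5.48% were lower at 4 weeks and 1.65% at 8 weeks, and over those above background in all groups 9.59% and 2.33%. The lower regulator at 4 weeks was Tfb1m, which methylates the mitochondrial ribosomal RNA (8.00 ± 0.41 in KO and 8.87 ± 0.24 in WT, SD, n = 5 each, limma adjusted p = 0.00158). At 8 weeks it was the coactivator Ppargc1b (6.51 ± 0.49 in KO and 7.26 ± 0.14 in WT, SD, n = 5 each, limma adjusted p = 0.0243). Ppargc1a, the better known coactivator of mitochondrial biogenesis, was at 11.29 ± 0.90 in KO and 11.66 ± 0.53 in WT livers at 4 weeks and at 9.92 ± 0.72 in KO and 9.04 ± 0.43 in WT livers at 8 weeks (SD, n = 5 each). Neither genotype difference of Ppargc1a passed (limma adjusted p = 0.650 and 0.197).

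Across the 20 arrays most of the 45 genes correlated positively with their common mean. Each gene's Pearson correlation with the mean of the other 44 genes ran from -0.12 for Ndufaf4 to 0.87 for Ndufb5, and after Ndufaf4 the lowest were Ndufb4 (0.08), Ndufb4b (0.10), Ndufaf3 (0.17) and Ndufa3 (0.28). The median over 990 pairs of genes was 0.35, and 0.32 after each group was centred on its mean. Outside the 45 genes, the most similar to their mean over 20 arrays were Atp5j (0.88), a subunit of ATP synthase, Tomm7 (0.87), of the mitochondrial import channel, Uqcrfs1 (0.85), the iron-sulfur subunit of complex III, Rangrf (0.85) and Srfbp1 (0.85). All points share arrays, normalisation and, in some arrays, muscle transcripts, so these correlations are descriptions.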

How the data were processed

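Liver RNA from 20 mice was measured on Clariom S Mouse arrays, and each array was assigned to its group by its genotype and age labels. The authors processed the arrays with RMA in Affymetrix Expression Console, per the submitters' processing notes, and deposited log2 signals. Their versions are not given in the sources used here. Deposited values lay between 2.32 and 19.85, beyond the ceiling of a 16-bit scanner, so that folds can be exaggerated. Medians per array lay between 5.42 and 5.58, and the number of arrays limits the precision. The medians ran with genotype, at 5.54 to 5.58 in KO and 5.46 to 5.56 in WT at 4 weeks. At 8 weeks they were 5.52 to 5.58 in livers labelled KO and 5.42 to 5.51 in WT, without overlap. Array order runs with the groups and cannot be told apart from them, and scan dates were not used.

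Of 22206 features, 19572 had 1 gene symbol, and the brightest feature per symbol gave 19505 genes. A mean per group was estimated for each gene with limma 3.58.1 (R 4.3.3, 16 residual degrees of freedom), a step tested on simulated data, with Benjamini-Hochberg adjustment over all genes and a call at an adjusted p below 0.05. Exact permutation tests were two-sided over 5 against 5 arrays. A group mean below the 95th percentile of 1410 receptor genes counted as not above background (5.02 to 5.20).

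The genes described, the lists and the background level were chosen with earlier results of these data known. Described in full were all called genes (with more than 12, the 6 largest changes each way and the smallest p per role, and with fewer than 4, the 4 smallest adjusted p), the widest spread, up to 2 examples per other list and the 5 most similar genes. The alternatives were equal array medians, repeated quantile normalization, no dim genes, mean features, trended robust moderation, array weights, the replicate block and left-out arrays. Replicate numbers did not pair arrays.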

Additional observations from a re-analysis of the deposited data

Results flagged for a closer look

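Within each group of 5 arrays, the highest or lowest value of each complex I gene was compared with its nearest neighbour by Dixon's criterion. It stood apart in 16 of 180 gene and group combinations, and chance gives about 1 in 20. The 3 muscle-rich arrays held 7 of them. These were WT replicate 4 at 4 weeks for Ndufc2 (16.25), Ndufb10 (9.76), Ndufb8 (9.21) and, as the lowest, Ndufaf8 (6.85), KO replicate 4 at 4 weeks for Ndufb3 (8.83), and KO replicate 5 at 4 weeks for Ndufaf3 (7.11) and Ndufa12 (14.25). In 8-week livers labelled KO, replicate 4 stood above the others for Ndufb4 (14.75), Ndufb4b (15.45) and Ndufb6 (12.85), and replicate 3 for Ndufs3 (14.45) and Ndufa1 (11.41). Ndufb4b also stood high in WT replicate 4 at 8 weeks (15.33), and Ndufb4 in KO replicate 3 at 4 weeks (15.22). In WT replicate 5 at 4 weeks, Ndufa6 (12.93) was the lowest of its group and Ndufaf1 (10.89) the highest.

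The KO effect differed between ages, by the interaction in limma over 5 arrays per group, for Ndufa3 (1.34), Ndufa6 (0.84) and Ndufaf4 (-1.15), with adjusted p of 0.00187, 0.0322 and 0.0109. Ndufa6 lost this call in 12 of 29 alternatives, Ndufaf4 in 1 and Ndufa3 in 0.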

How the results depend on the processing

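No call of any of the 45 genes changed direction under the alternatives run. Ndufa3, Ndufs8, Ndufv3, Ndufaf3 and Ndufb4 kept their 4-week call in all 29 alternatives, and Ndufaf8 lost it in 15, Ndufa2 in 11 and Ndufb7 in 10. Not all 29 could change a call equally. The mean of features left the values of these genes as they were, since each had 1 feature. Leaving out an array of the other age left a genotype difference unchanged and altered only the shared spread and the adjustment. At 8 weeks Ndufaf6 lost its call in 16 and Ndufb3 in 1. Without the 3 muscle-rich arrays, calls numbered 6 at 4 weeks, 1 at 8 weeks and 0 for age within WT. Without WT replicate 3 at 4 weeks as well, a setting added after seeing the data, they numbered 5 at 4 weeks, 1 at 8 weeks, 1 for the interaction and 0 for age within WT. At 8 weeks 4 genes were called after array medians were set equal, Ndufaf4 and Ndufv2 being the added ones, and 1 with trended and robust moderation. Leaving out 1 array gave 8 to 12 calls at 4 weeks, 0 to 6 at 8 weeks, 2 to 5 for the interaction, 10 to 16 for age within KO and 0 to 3 within WT. The medians over the 45 genes ran from -0.28 to -0.12, from -0.29 to -0.19, from -0.14 to 0.01, from -0.30 to -0.21 and from -0.27 to -0.14 in the same order. The 8-week count was 1 when any single one of these arrays was left out: WT replicates 1, 2, 3 and 5 at 4 weeks, KO replicate 3 at 4 weeks, WT replicates 1, 2 and 5 and KO replicates 2, 4 and 5 at 8 weeks. It was 0 without WT replicate 3 and 6 without KO replicate 3 at 8 weeks. The interaction count of 5 came without KO replicate 4 at 8 weeks. The within-WT count was 0 without WT replicate 4 at 4 weeks or 2 at 8 weeks, and 1 without WT replicate 2 at 4 weeks or 1, 3 or 5 at 8 weeks. Shares over all genes are not set beside these counts here, so the counts describe only how stable the calls were. The cause was not tested.

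Replicate numbers did not pair the arrays, since in no pair of groups were all 5 correlations of deviations over 0.1 (5 of 30 in all, range -0.18 to 0.48). Between KO and WT at 4 weeks 4 of 5 were over 0.1. With the replicate number as a block, calls numbered 10 at 4 weeks, of which 9 were shared (Ndufaf8 and Ndufb7 were lost at adjusted p of 0.0571 and 0.0513 and Ndufb4b was gained at 0.0447), 2 at 8 weeks, 3 for the interaction, 12 for age within KO and 2 within WT. The number of arrays and signals near background limit Ndufv3 and Ndufa4l2.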

Other observations

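Around the 11 complex I genes called at 4 weeks, the 22 nearest measured neighbours in the GRCm38.p6 gene order held 3 called genes, all lower like the complex I gene beside them (5.48% of all genes tested were lower). Cyp2d22, a cytochrome P450 next to Ndufa6, was at 12.58 ± 0.28 in KO and 13.49 ± 0.50 in WT livers. Rgn, regucalcin, next to Ndufb11, was at 16.95 ± 0.15 in KO and 17.79 ± 0.26 in WT, and Tecr, an enzyme of fatty acid elongation next to Ndufb7, was at 12.49 ± 0.49 in KO and 13.25 ± 0.36 in WT (SD, n = 5 each). The limma adjusted p was 0.00753, 3.48e-04 and 0.0212. The neighbours of Ndufa3, Ndufs8, Ndufv3, Ndufaf3, Ndufaf4, Ndufaf8, Ndufb4 and Ndufa2 did not pass.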
